A study of Sus scrofa with 3 samples.

Results

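The nuclear genes of oxidative phosphorylation, the system by which mitochondria make ATP, were followed through 3 stages of the developing pig tooth germ. Members were all genes with 1 symbol in the platform's probe table whose symbol begins with NDUF, UQCR, COX4 to COX8 or ATP5, or is SDHA, SDHB, SDHC, SDHD, CYC1 or CYCS. The rule uses no measured value. It found 64 genes on 81 probe sets, of 6765 genes with 1 symbol, and each gene was read from its brightest probe set (by mean log2 signal). Of the 64 genes, 57 encode subunits of complexes I to V, 2 encode muscle-type isoforms of cytochrome c oxidase (COX7A1 and COX8H), 1 encodes cytochrome c (CYCS), 3 encode assembly factors of complex I (NDUFAF1, NDUFAF2 and NDUFAF3) and 1 encodes coupling factor B (ATP5S). CYC1 is in no row with 1 symbol and is not analysed here.

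The samples were the last deciduous molar germs of the mandible of Wuzhishan miniature pigs, taken with the dental lamina at E40, E50 and E60. No treatment or genetic change is given for any of them. The labels give E40 as the cap stage without a secondary dental lamina, E50 as the bell stage in which that lamina starts, and E60 as the secretory stage, which the methods of the study call late bell. Germs of 1 litter were pooled for each stage, the number of embryos in a pool is not given in the sources used here, and each pool was put on 1 Affymetrix Porcine Genome Array. With 1 array per stage no spread between animals can be had, so no test was run, and each difference compares the arrays of these pools.

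In the respiratory chain, complex I takes electrons from NADH and complex II takes them from succinate. Complex III passes them to cytochrome c, and complex IV, cytochrome c oxidase, hands them to oxygen. Complexes I, III and IV pump protons, and complex V, the ATP synthase, uses the proton gradient to make ATP. Most subunits are encoded in the nucleus and a few in the mitochondrial genome, so assembly needs both. Heart and skeletal muscle hold many mitochondria and use their own isoforms of some complex IV subunits. A tooth germ forms from dental epithelium and neural crest mesenchyme, which later give the ameloblasts and odontoblasts that secrete enamel and dentin matrix.

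All values are MAS 5.0 signals, which the authors scaled to the same trimmed mean on each array. Each array was given a floor at its 25th percentile (29.3 for E40, 17.2 for E50 and 21.8 for E60), and lower signals were set to it. A fold against a signal at the floor is a lower bound, and differences over 2-fold were called higher or lower. Of the 64 genes, 63 lay above the floor on all 3 arrays. COX8H lay under it on E50 and E60. The tooth germ list had 9 genes with a probe set. CDH1, LEF1, BMP4 and MSX1 had signals of 737.1 or more on every array, with MSX1 uneven (1559.0, 737.1 and 1213.7 in stage order). AMBN, an enamel matrix gene, had signals of 59.8, 2675.2 and 29942.0 in stage order. The other 4, AMELX, ENAM, DSPP and DMP1, lay under the floor on E40, and DMP1 did so on E50 too. Markers of skeletal muscle differed strongly between the arrays. In stage order, the summed signal of 31 muscle genes was 62507, 1891 and 4736, and of the 30 genes that could be compared 29 were more than 2-fold lower on E50. The larger sum on E60 than on E50 came mostly from MYL1, a myosin light chain gene (481.2 on E50 and 3266.3 on E60), while the median of the list was 0.06 and 12 genes lay under the floor on E60. Of the keratinised epithelium list 6 genes had a probe set, and their summed signal was 15059, 3729 and 4199. Of the 5 that could be compared on E50 versus E40, 4 were lower by over 2-fold, against 7.98% of all genes. KRT10 went the other way (1320.7, 1713.5 and 2275.5), and KRT1 lay under the floor throughout. In RNA of a whole tissue, fewer cells of a type and less RNA per cell cannot be told apart. Muscle is rich in mitochondria, and its part in the subunit signals was not tested.

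The subunit genes stood a little higher on E50 than on E40, nearly all of them together, and differed little between E50 and E60. On E50 versus E40, 54 of the 57 subunit genes had the higher signal on E50, against 53.1% of all genes compared, and 3 had the lower signal, against 44.8%. The median of their log2 fold changes was 0.32 (1.24-fold), and the middle 50% of them lay between 0.22 and 0.48. Over all genes the median was 0.04 and the middle 50% ran from -0.35 to 0.32. Bright genes as a class stood higher on E50: in the 2162 genes with a mean signal of at least 1000 (on the log2 scale) the median was 0.18, and 71.6% had the higher signal on E50. The 52 subunit genes above this limit had a median of 0.31, with 51 of them higher on E50. The median over all 57 subunit genes thus lay 0.13 above that of the brighter genes. Scaling a whole array cannot move this gap. Of the choices that can, quantile normalization gave 0.13, the mean over probe sets 0.19, and probe sets without shared-match suffixes 0.14. Each pair of comparisons shares 1 array, so none is independent of the others.

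Few members passed the 2-fold limit. On E50 versus E40, 3 of the 64 genes (CYCS, COX7A1 and NDUFB1) passed it upward, where 2.73% of all genes did. Lower were 2, ATP5I and COX8H, where 7.98% of all genes were lower. On E60 versus E50 no member was higher and only ATP5I was lower by over 2-fold, against 4.37% and 1.75% of all genes. On E60 versus E40 CYCS, COX7A1 and NDUFA5 were higher and ATP5I and COX8H were lower, against 4.44% and 7.21% of all genes.

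**Figure D1:**
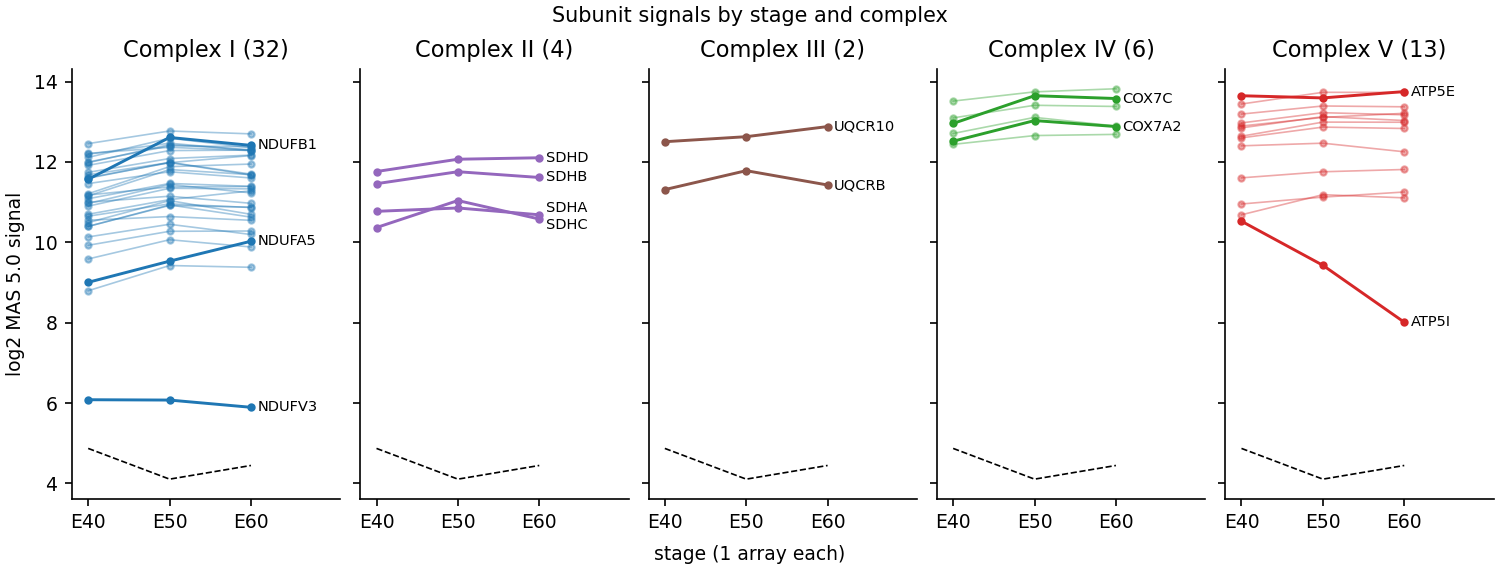
Log2 MAS 5.0 signals (vertical axis) of the 57 subunit genes by stage (horizontal axis, with 1 array for each), in 1 panel per complex. Each line is 1 gene, the named genes are drawn heavier, and the dashed line is the floor of each array. Most lines step up from E40 to E50 and stay level to E60, while ATP5I goes down from 1473.4 to 689.0 and 258.1.

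Complex I had 32 members, of which 31 stood higher on E50 than on E40, with a median log2 fold change of 0.38. Its core subunits include those that carry the flavin and iron-sulphur groups, which move electrons from NADH. All 5 core subunits measured (NDUFS1, NDUFS3, NDUFS7, NDUFV1 and NDUFV2) were higher on E50. NDUFV1, which binds NADH, stood at 1123.7, 1397.5 and 1171.8 in stage order. NDUFS1, the largest core subunit, stood at 1499.0, 1597.3 and 1496.4, and NDUFS7, an iron-sulphur subunit, at 1346.5, 1951.6 and 1581.3. These signals were highest on E50, and those of E60 lay nearer to E40 than to E50. NDUFS3 stood at 2044.5, 2267.3 and 2007.0. NDUFV2 differed, at 2279.7, 3592.1 and 3290.0, with its E60 signal nearer to E50 than to E40. All 5 core genes were lower on E60 than on E50, by log2 values of -0.09 to -0.30, where 54.0% of all genes were lower. That holds for the probe sets used. The other probe sets gave 0.50 and -1.04 for NDUFV2, and 0.27 and -0.51 for NDUFS3. The core median on E60 versus E40 was 0.06.

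The accessory subunits of complex I do not move electrons but hold the complex together. Of the 20 that were assigned to the membrane arm, all were higher on E50 than on E40 (median 0.38), and 19 were higher on E60 than on E40 (median 0.30). NDUFB1 stood at 3037.4, 6248.4 and 5449.0, a rise of 2.06-fold from E40 to E50, and was the only subunit gene past 2-fold in that direction. NDUFA8, a subunit on the intermembrane side, stood at 2366.9, 3776.9 and 3948.9, and NDUFS5 at 5618.6, 6984.8 and 6646.5. NDUFB8, a subunit often probed on blots to follow complex I, stood at 4430.0, 6165.0 and 5238.5, and NDUFAB1, the mitochondrial acyl carrier protein, at 4747.2, 5271.8 and 4974.0. These 5 genes were lowest on E40, and NDUFA8 alone was not highest on E50. NDUFA3 differed in that its E60 signal was back at the E40 level (3283.0, 4054.5 and 3268.1), while NDUFC1 was higher at each stage, within the 2-fold limit (1661.1, 2139.4 and 2488.9).

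Of 7 accessory subunits of the arm that reaches into the matrix, 6 were higher on E50 than on E40, with a median of 0.44. NDUFA5 stood at 513.7, 739.8 and 1043.1. It was the 1 subunit gene higher by over 2-fold on E60 than on E40 (2.03-fold), with about equal steps at both intervals (0.53 and 0.50, log2). NDUFA7 stood at 1437.8, 2103.2 and 1659.3, with the highest signal on E50, and NDUFA12 stood at 4679.4, 5659.9 and 4987.5. NDUFV3, a small subunit with tissue-dependent isoforms, was the 1 member of complex I not higher on E50 (67.8, 67.4 and 59.5), on a dim probe set.

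Complex II, succinate dehydrogenase, is wholly encoded in the nucleus and also belongs to the tricarboxylic acid cycle. SDHA, the flavoprotein that oxidises succinate, stood at 1747.1, 1851.4 and 1646.0. SDHB, the iron-sulphur subunit, stood at 2815.1, 3460.2 and 3133.2. On the probe sets used, the signals of these catalytic subunits differed by at most 1.23-fold between arrays. Their dimmer second probe sets differed more. That of SDHA stood at 334.8, 502.8 and 386.5, a log2 difference of 0.59 from E40 to E50. That of SDHB stood at 1076.2, 1315.2 and 967.6, with log2 steps of 0.29 and then -0.44. Between E40 and E60 the signs were opposite: 0.21 against -0.09 on the probe set used for SDHA, and -0.15 against 0.15 for SDHB. Of the membrane anchors, SDHC stood at 1320.8, 2104.6 and 1530.1, and SDHD at 3472.0, 4292.1 and 4401.5. SDHC was highest on E50 and SDHD on E60. All 4 genes were higher on E50 than on E40, with a median of 0.30, and 3 of 4 were lower on E60 than on E50.

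Complex III was represented by 2 small subunits. UQCRB, which lies near the ubiquinone site, stood at 2541.9, 3523.4 and 2751.3, and UQCR10 at 5805.3, 6331.5 and 7539.8. Both were higher on E50 than on E40, by 0.47 and 0.13 on the log2 scale. They parted on E60, where UQCRB was lower than on E50 by a log2 value of -0.36 and UQCR10 higher by 0.25. The UQCRB probe set carries a suffix that marks a match to more than 1 transcript.

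In complex IV all 6 general subunits measured stood higher on E50 than on E40. All 6 were also higher on E60 than on E40, with medians of 0.36 and 0.30. COX7C, a small membrane subunit, stood at 7955.8, 12836.4 and 12227.7, a log2 difference of 0.69 from E40 to E50. COX7A2, the general isoform of subunit VIIa, stood at 5856.4, 8359.9 and 7541.7. Both were lowest on E40 and highest on E50. COX6A1, the general isoform of subunit VIa, stood at 8755.0, 10884.1 and 10662.1, and COX5B, a zinc-binding subunit, at 6690.2, 8834.3 and 7605.0. COX6C stood at 11701.6, 13718.4 and 14468.4. NDUFA4, named for complex I but later placed in complex IV and counted there, stood at 5545.2, 6455.6 and 6588.3.

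Complex V had the lowest median of the 5 complexes on E50 versus E40, 0.21, and 11 of its 13 members stood higher on E50. In the F1 head, where ATP is made, ATP5A1 (the alpha subunit) stood at 9353.4, 10753.0 and 10601.7, and ATP5B (the catalytic beta subunit) at 8030.7, 9575.6 and 9237.5. ATP5D, the delta subunit of the central stalk, stood at 1646.2, 2328.5 and 2204.6. These 3 were lowest on E40, while ATP5E, the epsilon subunit, was lowest on E50 (12827.7, 12355.2 and 13785.5). The 3 genes of the c ring, the rotor in the membrane, encode the same mature protein. ATP5G1 stood at 3113.7, 3456.9 and 3595.8, ATP5G2 at 5408.1, 5659.8 and 4879.9, and ATP5G3 at 11125.6, 13608.4 and 13591.8. ATP5G3 was nearly equal on E50 and E60, whereas ATP5G2 was the 1 c ring gene lower on E60 than on E40. The 4 genes of the peripheral stalk, ATP5F1, ATP5H, ATP5J and ATP5O, were all higher on E50 than on E40, by log2 values of 0.17 to 0.35, and again on E60 versus E40. ATP5O, which ties the stalk to the head, stood at 7610.8, 8826.2 and 9476.0.

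ATP5I, the e subunit of the ATP synthase, went the other way. Together with the g subunit, ATP5L, it lies in the membrane where ATP synthase dimers meet. ATP5I had signals of 1473.4, 689.0 and 258.1 in stage order. It fell 2.14-fold from E40 to E50, a further 2.67-fold to E60, and 5.71-fold in all. ATP5L stood at 7372.4, 8947.8 and 8368.0, and its other 2 probe sets were also higher on E50 than on E40 (0.75 and 0.70, log2). ATP5I was the only subunit gene lower by over 2-fold in any pair, and ranked 22nd from the largest fall among 5859 genes above the floor on E60 versus E50. It rests on 1 probe set, since its second lay under the floor on all 3 arrays (7.5, 2.3 and 2.9). The call on E50 versus E40 was lost with the arrays at equal medians (-0.71, log2) and with the mean over both probe sets (-0.93), and that mean also ended the call on E60 versus E50 (-0.54).

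**Figure D2:**
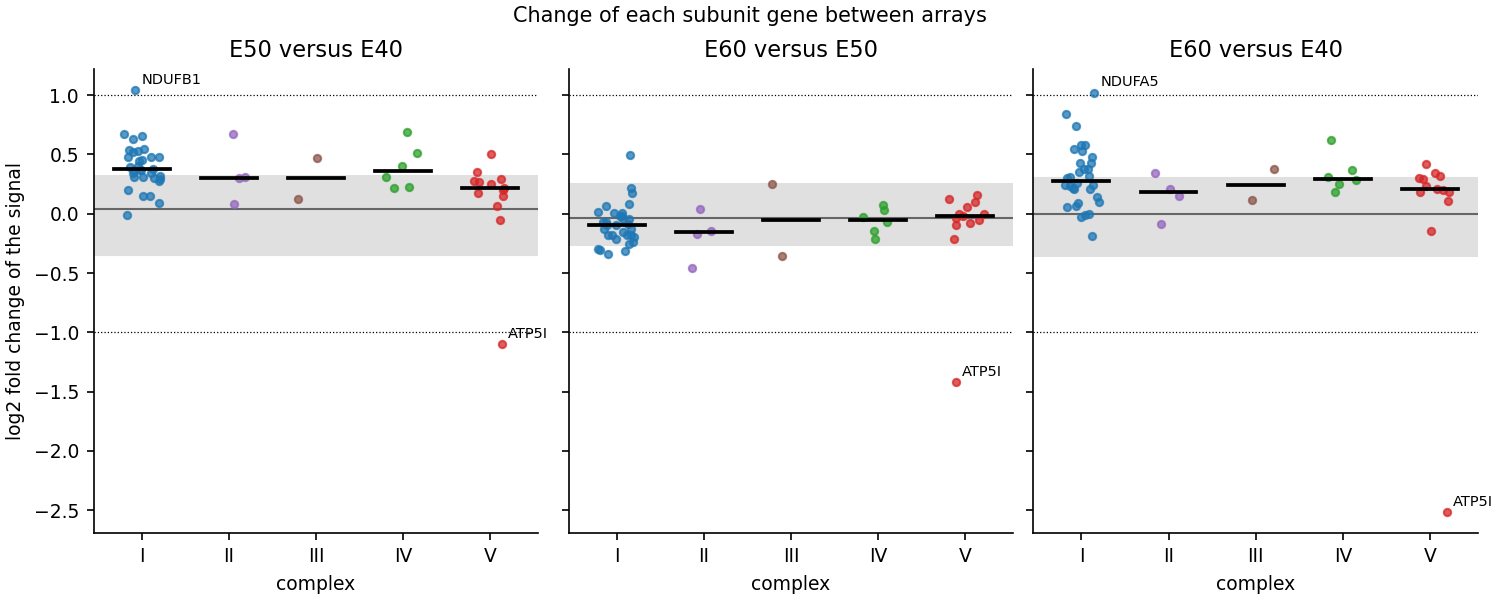
Log2 fold change (vertical axis) of each of the 57 subunit genes between 2 arrays, by complex (horizontal axis), in 1 panel per pair of stages. Points are genes, black bars the median of the complex, the grey band and line the middle 50% and the median of all genes with 1 symbol, and dotted lines the 2-fold limit. On E50 versus E40 the medians of the complexes lie between 0.21 and 0.38, above the 0.04 of all genes, and ATP5I stands apart at -1.10.

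The 2 muscle-type isoforms of cytochrome c oxidase moved in opposite directions. COX8H, the heart and skeletal muscle isoform of subunit VIII, had signals of 342.6, 4.6 and 9.2 in stage order, the last 2 under the floor. It was at least 19.9-fold lower on E50 and at least 15.7-fold lower on E60 than on E40, and no fold can be given between E50 and E60. Over the same step the fast myosin light chain gene MYLPF went from 8765.9 to 60.9 and CKM, the muscle creatine kinase, from 946.9 to 26.0. COX8H was thus high on the 1 array on which the muscle genes were high. With the floor at the 50th percentile its bounds shrank to -1.45 and -1.38 on the log2 scale. COX8A, the general counterpart of COX8H, is in no row with 1 symbol and is not analysed here.

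COX7A1, the isoform of subunit VIIa found in heart, skeletal muscle and brown fat, had signals of 281.4, 682.9 and 1349.2 in stage order. It rose 2.43-fold from E40 to E50 and 4.79-fold from E40 to E60, ranking 76th of 5819 and 32nd of 5827 genes from the largest rise. The step from E50 to E60 was 1.98-fold, just short of the limit. COX7A1 therefore rose over a step in which all 30 muscle genes compared were lower, 29 of them by over 2-fold, and its signal was lowest on the array with the most muscle signal. The adipocyte markers were dim, with a summed signal of 4 genes of 148.6, 132.6 and 251.9 on E40, E50 and E60, and ADIPOQ, which encodes adiponectin, lay under the floor throughout. FABP4, an adipocyte and endothelial gene, went from 44.2 on E40 to 139.3 on E60, 3.15-fold higher. CIDEA, a gene of brown fat, stood at 35.0 on E40 and 17.6 on E50, and its log2 fold change on E60 versus E40 was -0.67. LEP, which encodes leptin, stood at 68.4, 53.9 and 74.8. The parts of muscle and of adipocytes in the COX7A1 signal were not tested. SLC25A4, the ADP/ATP carrier isoform of muscle, stood at 1003.2, 788.5 and 794.6, and CKMT2, the mitochondrial creatine kinase of muscle, at 48.1 on E40 and under the floor on E50 and E60.

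CYCS encodes cytochrome c, which shuttles electrons from complex III to complex IV and also triggers apoptosis when it leaves the mitochondrion. Its signals were 159.7, 626.7 and 937.4 in stage order. It rose 3.93-fold from E40 to E50 and 5.87-fold from E40 to E60, and the signal on E60 was higher than that on E50 by 0.58 on the log2 scale. Among genes above the floor it ranked 29th from the largest rise of 5819 on E50 versus E40 and 26th of 5827 on E60 versus E40. CYCS and COX7A1 passed 2-fold in both comparisons with E40 under all 8 alternative settings of scaling, floor and probe set choice, while NDUFB1 fell below it after quantile normalization (0.92, log2) and housekeeping scaling (0.91). CYCS, COX7A1, COX8H and NDUFB1 each have 1 probe set, so no second reading exists for them. Whether the probe sets of CYCS and ATP5I read the genes they are named for was not checked, since that needs their probe sequences.

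**Figure D3:**
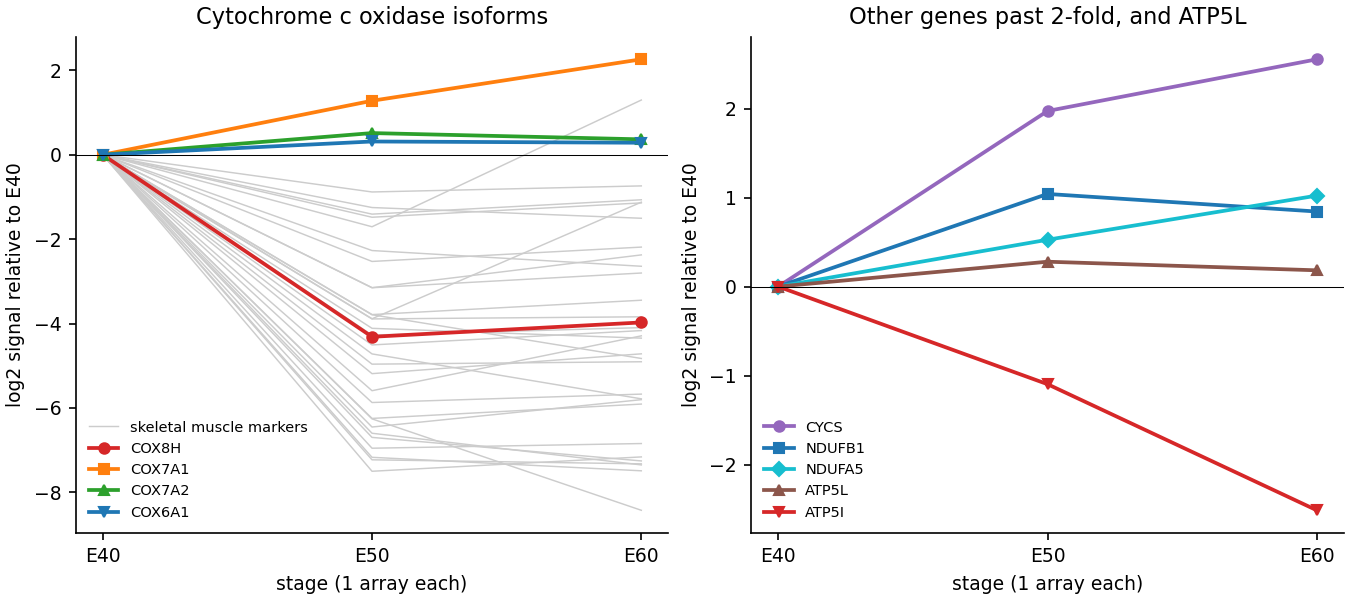
Log2 signal relative to E40 (vertical axis) at the 3 stages (horizontal axis, with 1 array for each), with signals under the floor set to it. Left, 4 isoform genes of cytochrome c oxidase over skeletal muscle markers (grey). Right, CYCS, NDUFB1, NDUFA5 and ATP5I, with ATP5L beside ATP5I. COX8H drops with the muscle markers, COX7A1 reaches 2.26 and CYCS 2.55 on E60, and ATP5I ends at -2.51.

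The genes with the rule's symbols that are not subunits had no common direction. NDUFAF1, an assembly factor of complex I, stood at 140.7, 132.7 and 106.8, NDUFAF2 at 485.4, 648.2 and 471.0, and NDUFAF3 at 575.1, 900.9 and 811.7. ATP5S, or coupling factor B, stood at 607.8, 898.3 and 1038.4. None of these passed 2-fold.

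How far a probe set can be trusted was read from members with several. Of 14 such genes, 10 had at least 2 probe sets above the floor. In 8 of the 10 all probe sets had the same sign on E50 versus E40, and the median gap between the probe sets of a gene was 0.48 on the log2 scale. That gap is larger than the subunit median itself. For NDUFV2 the probe sets gave 0.66, -0.47 and 1.16, and for NDUFS3 they gave 0.15, -0.40 and 0.61. NDUFA1 had 0.45 on the probe set used and 1.13 on the other, which would be past 2-fold. On E60 versus E50 the signs were shared in 4 of 10 genes, and the median gap was 0.22.

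Between E50 and E60 the median over the subunit genes was -0.07 (log2 fold change), against -0.04 over all genes and -0.06 over the brighter genes. Of the 57 subunit genes 16 were higher on E60, where 45.0% of all genes and 40.3% of the brighter genes were. The medians ran from -0.16 in complex II to -0.02 in complex V. The sign of all 5 complexes turned when the arrays were scaled to the housekeeping list, where the subunit median was 0.12 and that of all genes 0.16. On E60 versus E40 the subunit median was 0.25, 50 of 57 genes were higher on E60 (49.5% of all genes and 61.7% of the brighter genes, whose median was 0.10), and the medians ran from 0.18 in complex II to 0.30 in complex IV. By stage, 49 of the 57 subunit genes (86.0%) had their lowest signal on E40 and 39 (68.4%) their highest on E50, while among all genes above the floor 40.7% were lowest on E40 and 36.7% highest on E50, and among the brighter genes 54.3% and 46.5%.

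The direction on E50 versus E40 did not depend on how the arrays were scaled, but its size did. As the authors scaled them, the subunit median was 0.32. It was 0.70 with the arrays at equal medians, where the median of all genes went from 0.04 to 0.43, 0.23 after quantile normalization (all genes 0.13) and 0.19 after scaling to the housekeeping list (all genes -0.09). Relative to all genes the subunits were 0.27 higher as deposited, a gap that scaling a whole array leaves as it is, and 0.10 higher after quantile normalization. Of the 57 genes, 50 to 56 were higher on E50 under these scalings. The median of every complex stayed above 0 in each alternative for both comparisons with E40.

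**Figure D4:**
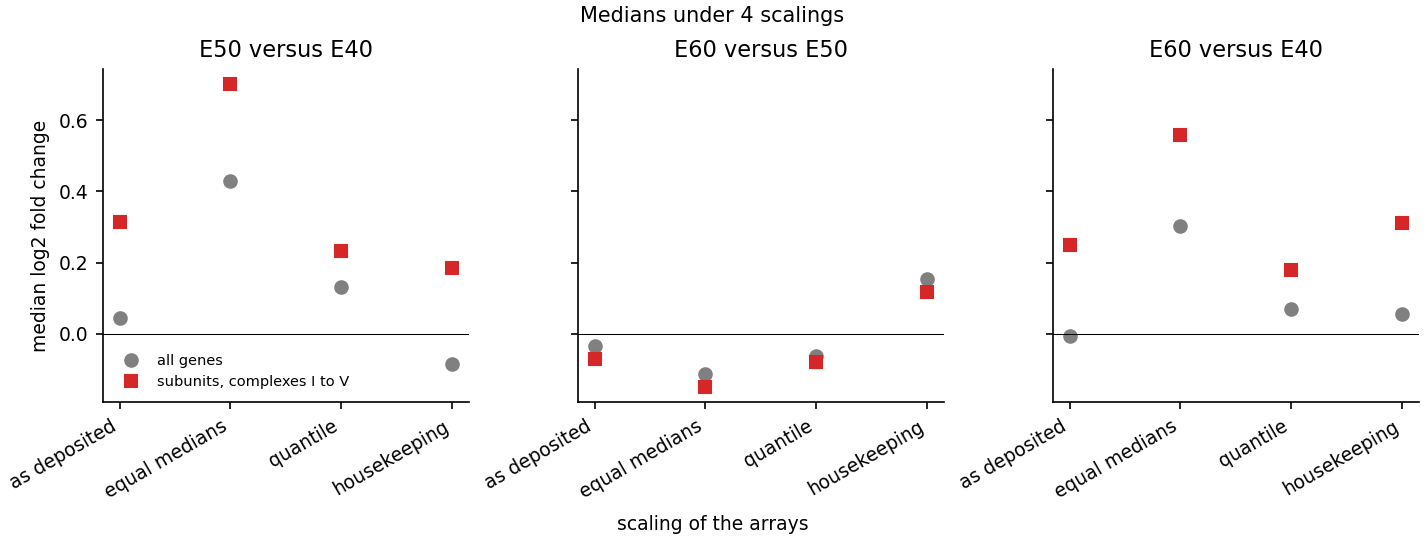
Median log2 fold change (vertical axis) of the 57 subunit genes (red squares) and of all genes with 1 symbol (grey circles) for the deposited scaling, equal medians, quantile normalization and the housekeeping list (horizontal axis), in 1 panel per pair of stages. On E50 versus E40 the subunits lie above all genes under the 4 scalings, by 0.10 to 0.27, and on E60 versus E50 the sign of both medians depends on the scaling.

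Other mitochondrial genes were set beside the subunits. The mitochondrial ribosome translates the subunits encoded in mitochondria. The 58 genes with its symbols (beginning with MRPL or MRPS) had a median of 0.33 on E50 versus E40. None passed 2-fold, against 2.73% (higher) and 7.98% (lower) of all genes. Among the 58, 51 were higher on E50, against 53.1% of all genes and 71.6% of the brighter genes. On E60 versus E50 their median was -0.14 and on E60 versus E40 0.22. At the last pair 1 gene, MRPS36, was higher by over 2-fold (82.1, 152.1 and 234.7), where 4.44% of all genes were. Lower by over 2-fold was 1, MRPL44 (1456.5, 1084.4 and 720.2), where 7.21% of all genes were. Membership went by symbol alone, and whether MRPS36 encodes a protein of this ribosome was not checked. Of the brightest, MRPL53 stood at 2903.9, 2938.4 and 3188.2, MRPS21 at 2301.0, 2569.7 and 2783.8, and MRPL17 at 1801.4, 2590.1 and 2737.8. The sign on E60 versus E50 turned with housekeeping scaling (0.05). For the subunits encoded in mitochondria 26 symbols were searched, current and older names of the same genes. None has a probe set, so these subunits are not analysed here.

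The tricarboxylic acid cycle and pyruvate dehydrogenase supply the chain with NADH and succinate. The list of 19 genes around them had medians of 0.22 (E50) and 0.33 (E60) against E40, and none passed 2-fold in any pair. Not all are suppliers, since the list holds the pyruvate dehydrogenase kinases PDK3 and PDK4, and PC, pyruvate carboxylase. Their log2 values were 0.90, -0.05 and -0.405 for E50 against E40. For E60 against E40 they were 0.47, 0.50 and 0.33. CS, citrate synthase, often taken as a measure of mitochondrial content, stood at 3093.9, 3432.1 and 3241.7, and IDH2, a mitochondrial isocitrate dehydrogenase, at 3138.2, 3273.8 and 3004.7. SUCLG1, a subunit of succinyl-CoA ligase, stood at 2728.6, 3781.9 and 2809.6. CS and IDH2 differed by at most 1.11-fold between arrays.

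The 7 carriers and pores had a median of 0.16 on E50 versus E40 and none passed 2-fold. SLC25A6, an ADP/ATP carrier, stood at 15987.5, 17856.4 and 17559.1, and SLC25A3, the phosphate carrier, at 11241.7, 11347.6 and 11347.2. VDAC1, a pore of the outer membrane, stood at 6886.9, 6779.0 and 7647.0. These supply the ATP synthase with ADP and phosphate, and the signals of these 3 genes differed by at most 1.13-fold between arrays.

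Assembly factors outside the rule and regulators had medians near 0 whose sign depended on the setting. The 12 assembly factors had medians of -0.07 for E50 against E40, -0.11 for E60 against E50 and -0.10 for E60 against E40, and none passed 2-fold. The first turned to 0.31 at equal medians, 0.11 after quantile normalization and 0.01 without a floor, and the regulators' -0.05 turned to 0.34 at equal medians and 0.13 with the floor at the 50th percentile. OXA1L, which inserts proteins into the inner membrane, stood at 3831.0, 4396.9 and 3111.3, ECSIT, an assembly factor of complex I, at 487.4, 809.6 and 597.4, and ATPAF1, an assembly factor of the F1 head, at 633.2, 454.1 and 374.6. Of the 5 regulators, PPARGC1A, a coactivator of mitochondrial biogenesis that muscle and brown fat express strongly, stood at 133.4, 51.0 and 61.9 and fell 2.62-fold from E40 to E50. PPRC1, a related coactivator, stood at 717.2, 440.9 and 316.3, which is 2.27-fold lower on E60 than on E40. TFAM, which packages and transcribes mitochondrial DNA, stood at 1431.4, 1381.4 and 1255.2. YY1, a general transcription factor, stood at 4241.5, 5229.1 and 4851.5. PPARGC1A was high on the array with the most muscle signal, and the part of muscle in it was not tested.

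**Figure D5:**
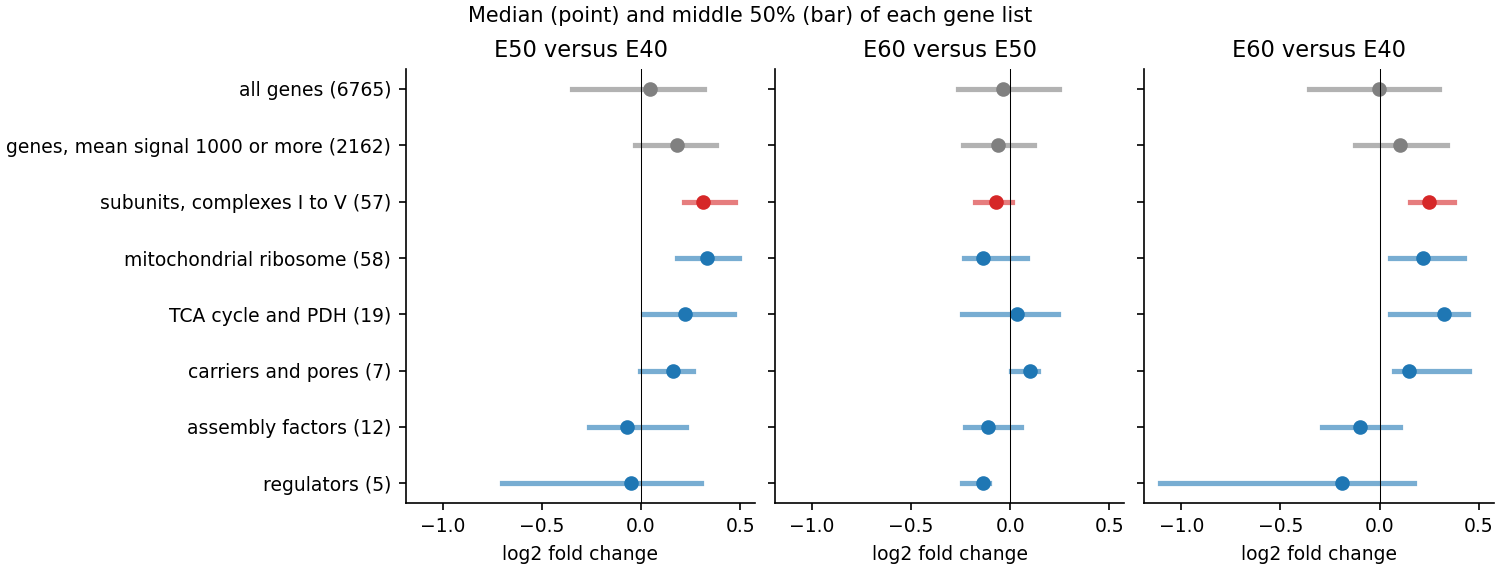
Median log2 fold change (point) and middle 50% (bar) of each gene list, on a horizontal axis of log2 fold change, with the number of genes in brackets and 1 panel per pair of stages. On E50 versus E40 the subunits (0.32) and the mitochondrial ribosome (0.33) have the higher medians, and assembly factors (-0.07) and regulators (-0.05) lie near that of all genes (0.04), with a sign that depends on the scaling.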

How the data were processed

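RNA of 1 litter pool per stage was labelled with a 3' IVT kit and hybridised to 1 Affymetrix Porcine Genome Array each. The authors computed MAS 5.0 signals in GeneSpring. The deposited table holds log2 values, as read from their range, for 24123 probe sets. Their mean, without the outermost 2% at either end, is 500.1 on each array, so scaling by the authors cannot be undone and a class of bright RNA on 1 array can shift the others. Detection calls were not used here. From the table, 124 controls were left out. Symbols came from the platform table (10069 probe sets with 1 symbol, 198 with several, 13732 without), and all 81 member probe sets matched a reference gene table with the same symbol, which does not check what their probes read. Another 4 probe sets pair a matching symbol with a second gene and were left out.

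Floors, folds and medians were computed in Python 3.11.15 with pandas 2.3.3 and tested on simulated data. A gene with both signals under the floor has no fold. Related lists and markers were written with earlier results of these data known, as were the members. Named genes are members past 2-fold and the 3 brightest of each complex with its 2 largest rises and falls in each pair. Muscle-type isoforms are named with their counterparts where these were measured. Also named are SDHA to SDHD, CYCS and members whose probe sets moved apart by over 2-fold. In each related list the 3 brightest and those past 2-fold are named. ATP5B, ATP5G1, ATP5H, ATP5L, ATP5O, NDUFA1, NDUFAB1, NDUFS1, NDUFS7, NDUFV1, PC, PDK3, PDK4, SLC25A4, VDAC2, VDAC3 and the marker genes were named after their values were seen. Alternatives were 3 scalings, 3 floors, 2 probe set choices, fold limits of 1.5 and 3 and all genes of the rule. Leaving out ATP5I and the background of brighter genes were chosen after seeing the data. The number of arrays limits the precision.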

Additional observations from a re-analysis of the deposited data

How the results depend on the processing

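On E60 versus E50, scaling to the housekeeping list turned the medians to 0.12 (subunits), 0.10 (complex I), 0.034 (II), 0.14 (III), 0.14 (IV) and 0.17 (V), and probe sets without shared-match suffixes turned complex III, then 1 gene, to 0.25. The other 146 recomputed medians kept their sign within 1.5-fold. Counts of subunits past 2-fold are 0 or 1 in each direction and move easily. At equal medians 6 were higher and none (0) lower for E50 against E40, and 3 higher for E60 against E40. Quantile normalization and housekeeping scaling each gave 0 higher on E50 versus E40. The mean over probe sets gave 0 lower in both comparisons with E50. A 1.5-fold limit gave 6 higher for E50 and 4 for E60, both against E40. A 3-fold limit gave 0 higher for E50 or E60 against E40, and 0 lower for E50 against E40 or E60 against E50. With all 64 genes, 3 were higher and 2 lower in both comparisons with E40. Beyond what a setting itself changes, the cause was not tested. Leaving out ATP5I changed no median by over 1.5-fold. No paired analysis was possible because each stage has 1 array.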

Other observations

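The 4 proliferation genes measured were highest on E50, as were 46.5% of the brighter genes. On E60 3 of the 4 were lowest, as were 30.5% of the brighter genes. PCNA, the sliding clamp of DNA polymerase, had signals of 3908.5, 5430.9 and 4607.3 in stage order, MCM2, a replication helicase subunit, at 1849.9, 2850.9 and 1507.1, TOP2A, a topoisomerase of dividing cells, at 4128.9, 4799.3 and 3413.4, and CCNB1, a mitotic cyclin, at 2361.5, 3001.2 and 2149.8. All 4 measured genes of the list were higher on E50 than on E40 (median 0.41, log2), against 53.1% of all genes and 71.6% of the brighter genes. They were lower on E60 than on E50 (median -0.49), against 54.0% of all genes, and none passed 2-fold. This list was not recomputed under other scalings. The erythroid gene HBB stood at 2038.5, 1759.0 and 2341.4, ALAS2 at 265.5, 174.1 and 204.2, and HBM at 128.4, 112.4 and 114.8. The median of the 6 erythroid genes on E60 versus E40 was -0.03 (log2). Of them 3 were higher and 2 lower on E60, where 49.5% of all genes were higher.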
